A study of Homo sapiens with 16 samples.

Results

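LIN28B, LIN28A, HMGA1, HMGA2, IGF2BP1, IGF2BP2, IGF2BP3 and ARID3B belong to the LIN28 and let-7 axis or to the genes known as oncofetal. Oncofetal genes are typically active in the embryo, low in most adult tissues and active again in tumours. No embryonic or adult tissue was measured here, so this pattern was not examined for any of the 8. The genes were chosen by gene symbol, as the 8 rows whose Ensembl identifiers map to these names among 58787 identifiers in the count table. The cells were IMR32, an established human neuroblastoma line with amplified MYCN, labelled as neuroblasts. TPX2 was knocked down with 1 of 3 siRNAs (si45, si46 or si47), and control cells received the non-targeting siRNA siNTC, with 4 biological replicates in each of the 4 groups. All groups were thus transfected cells of a single line, and 48 h stands in the names of the libraries. RNA was read with Lexogen QuantSeq, which sequences the 3′ end of polyadenylated transcripts, so a transcript gives about 1 tag whatever its length and levels of different genes were compared as counts scaled to the size of the library (CPM) without a length term.

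LIN28A and LIN28B are RNA-binding proteins that hold back the maturation of the let-7 microRNAs. The let-7 family in turn represses messages that carry its seed match in the 3′ UTR, among them LIN28B itself, HMGA2, the IGF2BP genes and ARID3B, so that the genes are high where let-7 is held down. In neuroblastoma LIN28B is known as an oncogene that raises MYCN protein and acts through the GTPase RAN on Aurora kinase A. TPX2, the target of the knockdown, is a spindle assembly factor that RAN releases and that activates Aurora kinase A, which places it at the far end of the same chain. HMGA proteins bend AT-rich DNA and open chromatin, IGF2BP proteins bind and stabilise messages, and ARID3B is an AT-rich DNA-binding transcription factor.

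The let-7 family is shown by 3 of its mature sequences, because the shared seed is what links the genes. Capitals mark the seed, bases 2 to 8 from the 5′ end. All 9 mature names matched in RefSeq (GRCh38.p14), from 12 hairpin loci, share this 1 seed.
hsa-let-7a-5p: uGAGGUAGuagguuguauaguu
hsa-let-7i-5p: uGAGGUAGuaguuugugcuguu
hsa-miR-98-5p: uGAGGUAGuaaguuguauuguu

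The annotated 3′ UTRs (GENCODE v29, GRCh38) of the 8 genes were searched on the sense strand for the 8-base match to this seed, CTACCTCA, which pairs with bases 2 to 8 and ends in an A. Each match is printed 5′ to 3′ in message orientation as 22 bases ending in the match, which is in capitals. All of them lie in the 3′ UTR of the gene's principal transcript.
LIN28B, first match, chr6:105078813-105078834, plus strand: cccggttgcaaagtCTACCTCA
LIN28B, second match, chr6:105081422-105081443, plus strand: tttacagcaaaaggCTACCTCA
LIN28A, chr1:26427349-26427370, plus strand: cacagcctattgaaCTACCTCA
HMGA2, chr12:65963299-65963320, plus strand: ccaacgttcgatttCTACCTCA
IGF2BP1, first match, chr17:49051062-49051083, plus strand: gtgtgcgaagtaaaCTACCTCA
IGF2BP1, second match, chr17:49053699-49053720, plus strand: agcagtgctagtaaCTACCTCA
IGF2BP1, last match, chr17:49054353-49054374, plus strand: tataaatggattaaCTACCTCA
IGF2BP2, chr3:185644220-185644241, minus strand: acacacagaagaagCTACCTCA
IGF2BP3, chr7:23311795-23311816, minus strand: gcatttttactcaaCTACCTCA

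IGF2BP1 held 3 matches in a 3′ UTR of 6206 bases and LIN28B held 2 in 4549 bases, while LIN28A, HMGA2, IGF2BP2 and IGF2BP3 held 1 each. HMGA1 (1347 bases) and ARID3B (2357 bases) held no 8-base match. They did hold shorter ones of 7 bases, 1 in HMGA1 and 5 in ARID3B. Beside their 8-base matches, HMGA2 held 6 of these, LIN28B 3, IGF2BP1 2 and IGF2BP2 1, while LIN28A and IGF2BP3 held 0. Among all 19124 annotated 3′ UTRs searched, 3.26% held the 8-base match. The 8 genes were listed for the LIN28 and let-7 axis, and several are known let-7 targets, so this share is background and no test. Their 3′ UTRs were 1347 to 6206 bases long, beside a median of 1191 bases over tested genes with an annotated 3′ UTR. A match is a description of the sequence and says nothing on whether let-7 was bound there. Mature let-7 was not measured, since these libraries start from polyadenylated RNA.

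**Figure D1:**
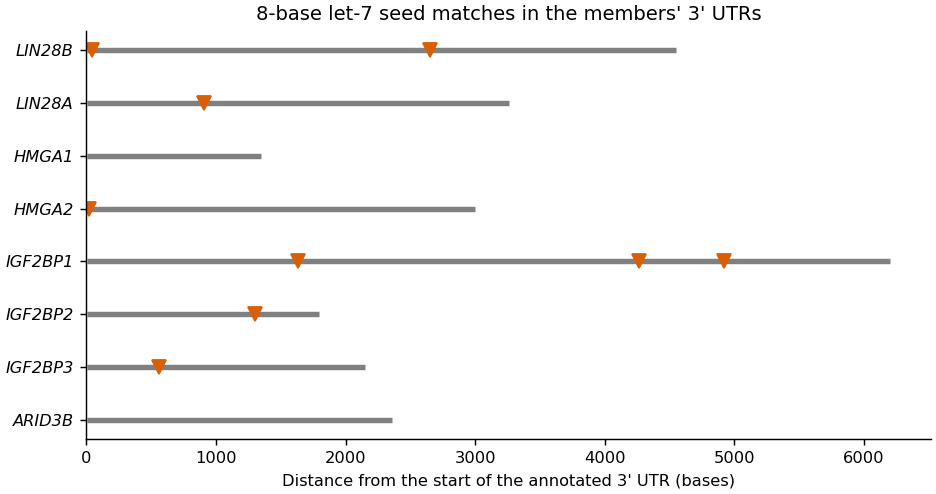
Position of each 8-base let-7 seed match (triangles) along the annotated 3′ UTR of the 8 genes (grey bars, distance in bases from the start of the 3′ UTR). IGF2BP1 has 3 matches, LIN28B has 2, LIN28A, HMGA2, IGF2BP2 and IGF2BP3 have 1, and HMGA1 and ARID3B have none.

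The libraries held 5318159 to 7864343 counts each (median 5966582), and 14193 genes passed the filter on low counts. The knockdown was present in every library: mean TPX2 was 327 ± 27.1 CPM (SD, n = 4) for siNTC against 91.6 ± 19.8 for si45, 81.7 ± 14.3 for si46 and 71.5 ± 3.37 for si47, and si45 replicate 3 was the highest of the knockdown libraries at 121 CPM. The neuroblast label was checked against adrenergic neuroblast markers (PHOX2A, GATA3, HAND2, DBH, TH and ISL1), and 6 of 6 had counts in every library. The sum of these markers ranged from 2532 to 2698 CPM among controls, and the knockdown ranges were 2642 to 3061 (si45), 2869.9 to 3005 (si46) and 2937 to 3281 (si47). Of the 8 mesenchymal or stromal markers 4 passed the filter. Counts in every library of the group were present for 5 of the 8 in siNTC, si45 and si47, and for 4 in si46. The sum of all 8 ranged from 231 to 263 CPM among controls, with 278 to 329 (si45), 259 to 334 (si46) and 243 to 289 (si47) under knockdown. In the mean contrast 5 of the 6 adrenergic markers had a positive log2 fold change and 1 a negative one, with a median of 0.20. DBH, the noradrenaline-making enzyme, fell by 0.56 on the log2 scale (adjusted p = 1.27e-05 by edgeR). It lay below all controls in 12 of 12 libraries, as did 1.03% of all genes. The transcription factor HAND2 rose by 0.23 (adjusted p = 0.0193 by edgeR) and lay above all controls in 12 of 12 libraries, as did 1.49% of all genes. PHOX2A, GATA3, TH and ISL1 had positive values without a call by edgeR. Without siNTC replicate 1 or 3 the adjusted p of HAND2 was 0.100 and 0.0728. The marker levels moved with the knockdown groups, and their part in the results was not tested.

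Of the 8 genes 6 passed the filter (LIN28B, HMGA1, IGF2BP1, IGF2BP2, IGF2BP3 and ARID3B) and 2 did not (LIN28A and HMGA2). The levels spanned a wide range. IGF2BP1 and HMGA1 were among the most abundant transcripts of these cells, at ranks 141 and 188 of 14193 by mean CPM in siNTC. IGF2BP3 followed at rank 1425, IGF2BP2 at 3198, LIN28B at 3981 and ARID3B at 4495. In siNTC the ranges of IGF2BP1 (817 to 863 CPM) and HMGA1 (588 to 811 CPM) did not overlap, but they lay close together, and LIN28B (44.6 to 56.2 CPM) and ARID3B (39.5 to 45.3 CPM) overlapped by a narrow margin. Of each pair of relatives, LIN28B and HMGA1 were the members with counts, and LIN28A and HMGA2 were at or near 0.

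LIN28A, the pluripotency paralog of LIN28B, had 0 counts in 13 of the 16 libraries, 2 counts in si46 replicate 1, and 5 each in si46 replicate 2 and si47 replicate 2. Its pseudogene LIN28AP1 had up to 5 counts in a siNTC library and 0 in all knockdown libraries, and reads of the gene and its copy may be split between them. HMGA2, the paralog of HMGA1 and the best-known let-7 target of the family, had 1 count in all 16 libraries together, in si46 replicate 3. A count of 0 allows up to 3 counts in a library, which was 0.381 to 0.564 CPM at these depths and covers counting error only. No fold change was computed for either gene, and a change below that limit was not detectable at this depth.

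Under TPX2 knockdown the log2 fold changes of the 6 genes lay between -0.25 and 0.22 with every siRNA, and the 1 change that passed the test was a lower IGF2BP1 with si47. By edgeR's quasi-likelihood test with Benjamini-Hochberg adjustment over all genes tested, 1 of the 6 tested genes was called in si47 against siNTC (0 higher, 1 lower). Over all genes the test called 9.74% there, 4.83% as lower. With si45 and with si46, 0 of the 6 were called (1.34% and 3.4% of all genes), 0 had an unadjusted p under 0.05 in either (11.4% and 15.0% of all genes), and DESeq2 and limma-voom called 0. In the mean of the 3 siRNAs against siNTC 0 of 6 were called by edgeR (7.14% of all genes). There 1 of the 6, IGF2BP1, had an unadjusted p under 0.05 (20.4% of all genes). IGF2BP1 was called there by DESeq2 and with the replicate number as a block, but not by limma-voom. The comparisons with siNTC share the same 4 control libraries. Fewer cells of a kind and less RNA per cell cannot be told apart in bulk RNA.

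**Figure D2:**
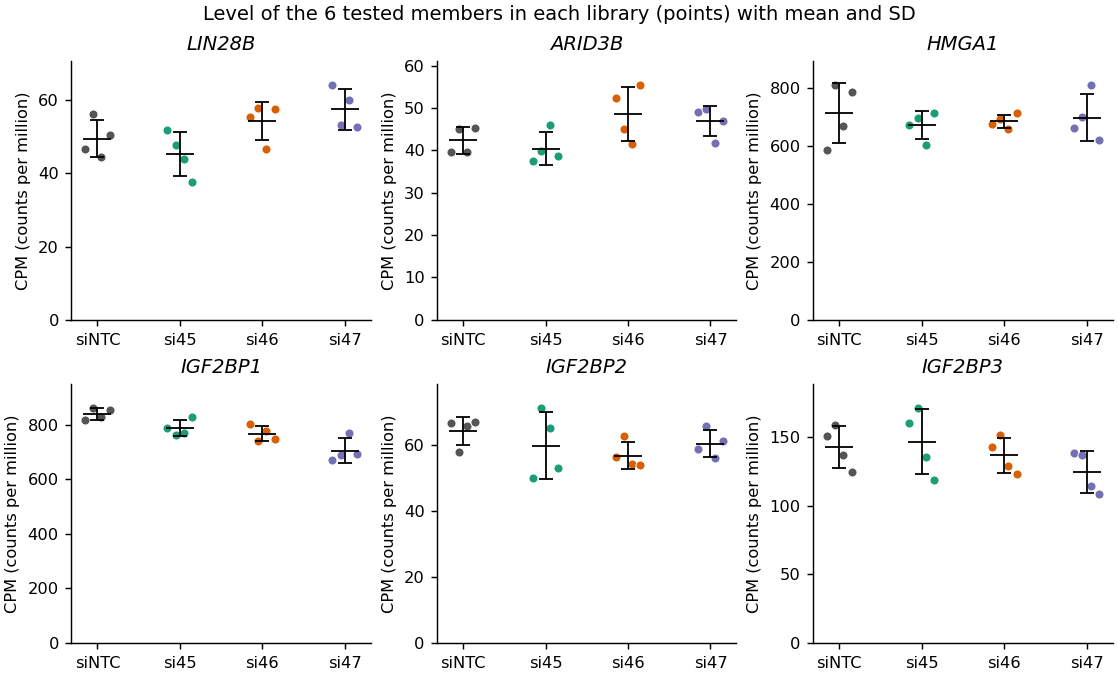
Level in CPM of the 6 tested genes in each of the 16 libraries (points, replicates 1 to 4 from left to right), with group mean (horizontal bar) and SD (whiskers) for siNTC, si45, si46 and si47; each axis starts at 0. IGF2BP1 falls from a mean of 841 CPM in siNTC to 706 CPM in si47 without overlap, its si46 values also lie below all controls, and the groups of the other 5 genes overlap with siNTC.

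LIN28B (chromosome 6, 104936616 to 105083332, plus strand) was measured at 46.8, 56.2, 44.6 and 50.5 CPM in siNTC replicates 1 to 4. With si45 it was at 52.0, 47.7, 43.9 and 37.6 CPM, with si46 at 55.4, 57.8, 46.6 and 57.6, and with si47 at 64.3, 53.2, 60.0 and 52.7. Every knockdown group overlapped with the control, with si45 centred below it and si46 and si47 above it. The log2 fold change against siNTC was -0.13 with si45 (95% confidence interval -0.37 to 0.12, adjusted p = 0.762 by edgeR) and 0.13 with si46 (-0.11 to 0.38, adjusted p = 0.670). With si47 it was 0.22 (-0.03 to 0.46, adjusted p = 0.279). In the mean of the 3 siRNAs it was 0.07 (-0.13 to 0.27, adjusted p = 0.731), an interval of -8.30% to 20.8% in percent.

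Among the siRNAs, LIN28B was lowest with si45 and highest with si47. All 4 si47 libraries had more LIN28B than all 4 si45 libraries, a log2 difference of 0.34 (SE 0.119, interval 0.10 to 0.59). Of all genes 2.64% were higher without overlap in this pair. The difference had an unadjusted p of 0.00705 and an adjusted p of 0.246 by edgeR, and with the replicate number as a block the adjusted p was 0.0717, so it was not called in either fit. Of the 6 genes 0 were called by edgeR, DESeq2 or limma-voom in any of the 3 pairs of siRNAs, where 0.0282% (si46 against si45), 0.169% (si47 against si45) and 0.0493% (si47 against si46) of all genes were. With the replicate block the number of genes called in si47 against si45 was 398 in place of 24, and 0 of the 6 were among them. Unadjusted p-values under 0.05 were seen for LIN28B and ARID3B in si46 against si45 (0.0368 and 0.0324; 4.1% of all genes), and for LIN28B, IGF2BP1 (0.0395) and IGF2BP3 (0.0359) in si47 against si45 (10.4% of all genes), and for 0 of the 6 in si47 against si46 (7.29%).

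ARID3B (chromosome 15, 74541177 to 74598131, plus strand) was at 39.6, 45.05, 39.5 and 45.3 CPM in siNTC and 37.4, 39.8, 45.9 and 38.6 with si45. It was at 52.3, 45.1, 41.6 and 55.5 CPM with si46 and 49.0, 49.7, 41.8 and 46.9 with si47. As for LIN28B, the mean was lowest with si45 and lay above siNTC with si46 and si47, here highest with si46, and the groups overlapped with the control throughout. Against siNTC the log2 fold change was -0.07 with si45 (-0.31 to 0.18), 0.20 with si46 (-0.04 to 0.44) and 0.15 with si47 (-0.10 to 0.39), with adjusted p-values of 0.895, 0.470 and 0.506. Over the 16 libraries the log2 CPM of LIN28B and ARID3B had a Pearson r of 0.57, the highest among the 15 pairs of the 6 genes; this is a description over libraries that share groups and scaling.

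HMGA1 (chromosome 6, 34236873 to 34246231, plus strand) was the gene with the widest spread in the control, at 588, 811, 671 and 787 CPM in siNTC. It was at 673, 695, 604 and 714 CPM with si45, at 675, 695, 658 and 713 with si46, and at 663, 699, 812 and 619.7 with si47. All si45 and si46 values lay inside the range of siNTC. The log2 fold change in the mean of the 3 siRNAs was -0.06 (-0.21 to 0.09, adjusted p = 0.716), and the single siRNAs gave -0.09, -0.06 and -0.03. Its sign turned without siNTC replicate 2 (0.01 in the mean contrast), so no direction was assigned. HMGA1 has processed pseudogenes elsewhere in the genome, and how reads that match both were counted is not given in the sources used here.

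IGF2BP1 (chromosome 17, 48997412 to 49055650, plus strand), the oncofetal message-binding protein encoded in the chromosome arm often gained in neuroblastoma, was at 817, 863, 828 and 855 CPM in siNTC. It was at 789, 763, 769 and 829 CPM with si45, at 802, 742, 779 and 746 with si46, and at 670.3, 688, 772 and 692 with si47. All 4 si47 and all 4 si46 libraries, and 3 of 4 si45 libraries, lay below every control library. Genes lower than the control without overlap made up 6.98% of all genes with si47, 4.67% with si46 and 2.95% with si45.

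The fall of IGF2BP1 with si47 was 0.25 on the log2 scale (SE 0.0742, interval -0.40 to -0.10, adjusted p = 0.0241 by edgeR), a percent change of -16.1% (interval -24.4% to -6.85%). With si46 the log2 fold change was -0.13 (-0.28 to 0.02, adjusted p = 0.425) and with si45 -0.09 (-0.24 to 0.06, adjusted p = 0.698). The mean of the 3 siRNAs gave -0.16 (SE 0.0600, interval -0.28 to -0.04, adjusted p = 0.105 by edgeR), 10.5% lower, which DESeq2 called at an adjusted p of 0.0235 and the fit with the replicate block at 0.0325. The difference of si47 from si45 was -0.16 (adjusted p = 0.446) and from si46 -0.12 (adjusted p = 0.783), so the fall was not shown to differ between siRNAs. The call with si47 was lost when 1 of 5 libraries was left out, with adjusted p-values of 0.0716 and 0.0606 without siNTC replicates 2 and 4, and of 0.0922, 0.0704 and 0.0575 without si47 replicates 1, 2 and 4. It was also lost when only the siNTC and si47 libraries were fitted (adjusted p = 0.0564), with a log2 fold change of -0.25. DESeq2, limma-voom and the replicate block, each fitted to all libraries, kept the call with si47.

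A U6 small nuclear RNA pseudogene, RNU6-826P, lies in an intron of IGF2BP1 on the same strand and had 242 to 604 counts a library. Its control level of 65.9 ± 9.22 CPM compared with 53.1 ± 5.63 for si45, 58.5 ± 12.9 for si46 and 47.7 ± 6.79 for si47 (SD, n = 4 each), and its log2 fold change in the mean of the 3 siRNAs was -0.32 (adjusted p = 0.0725). It was counted apart from IGF2BP1, and its part in the result was not tested.

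IGF2BP2 (chromosome 3, 185643739 to 185825056, minus strand) was at 66.5, 57.9, 65.8 and 66.8 CPM in siNTC and 49.8, 71.2, 65.0 and 53.0 with si45. It was at 56.5, 62.6, 54.2 and 53.8 CPM with si46 and 58.8, 65.7, 55.9 and 61.1 with si47. Every group overlapped with the control. Log2 fold changes were -0.10, -0.18 and -0.09 with si45, si46 and si47, with adjusted p-values of 0.806, 0.498 and 0.695, and the interval of the mean of the 3 was -0.31 to 0.06.

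IGF2BP3 (chromosome 7, 23310209 to 23470467, minus strand) was at 151, 159, 137 and 125 CPM in siNTC and 160.4, 172, 136 and 119 with si45. It was at 143, 152, 129 and 124 CPM with si46 and 139, 137, 114 and 109 with si47. Replicates 1 and 2 were above replicates 3 and 4 in all 4 groups. The log2 fold change with si47 was -0.20 (-0.42 to 0.02, adjusted p = 0.269, or 0.0688 with the replicate block), and with si45 and si46 it was 0.04 and -0.06 (adjusted p = 0.941 and 0.847). An exon of MALSU1, which had 212 to 336 counts a library, overlaps IGF2BP3 on the opposite strand, and whether the counting used strand is not given in the sources used here.

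The 3 IGF2BP paralogs bind overlapping sets of messages, so their proportions were also compared. IGF2BP1 made up 80.2 ± 1.13% of the IGF2BP counts of control libraries (SD, n = 4), and 79.2 ± 2.85%, 79.8 ± 1.55% and 79.2 ± 2.33% of those with si45, si46 and si47. IGF2BP3 made up 13.6 ± 1.31% in siNTC and 14.03 to 14.8% in the knockdown groups, and IGF2BP2 6.14 ± 0.520% and 5.91 to 6.79%. For each paralog the range of the share in siNTC overlapped with that in every knockdown group, and IGF2BP1 was the main paralog throughout.

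**Figure D3:**
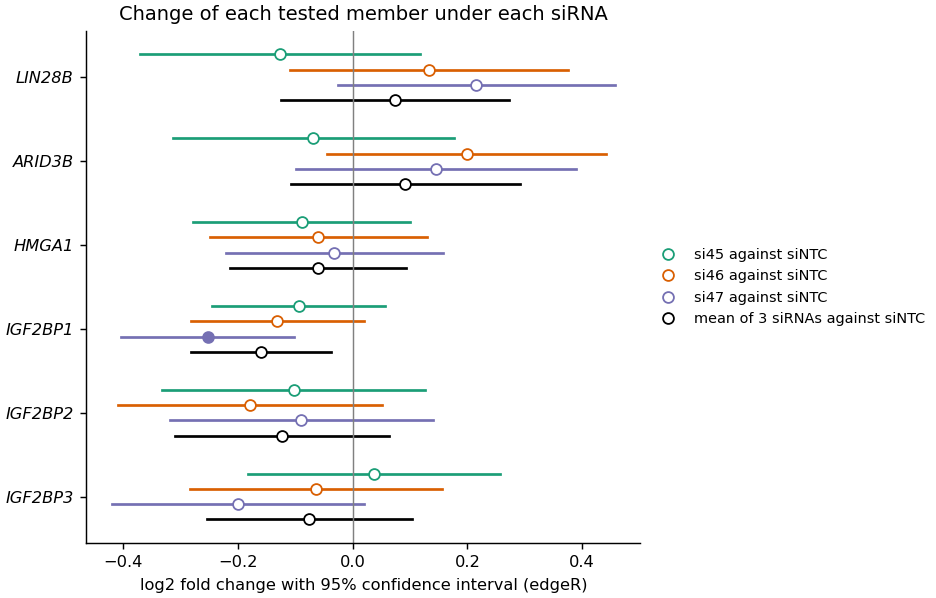
Log2 fold change against siNTC (edgeR, horizontal axis) with 95% confidence interval for the 6 tested genes, by siRNA and for the mean of the 3 siRNAs; filled points have an adjusted p under 0.05. The only filled point is IGF2BP1 with si47 at -0.25, and the intervals of LIN28B, ARID3B, HMGA1, IGF2BP2 and IGF2BP3 all include 0.

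The genes around LIN28 in the let-7 pathway were followed as a list of 15, all tested. In the mean of the 3 siRNAs 1 was higher and 1 lower (3.61% and 3.53% of all genes), with a median log2 fold change of -0.03 beside -0.0011 over all genes. The higher one was TRIM71, the LIN41 protein that is itself a classical let-7 target and marks undifferentiated cells. TRIM71 was at 13.0, 14.1, 13.6 and 13.5 CPM in siNTC, at 24.1, 16.2, 19.1 and 19.1 with si45, at 19.9, 18.6, 18.2 and 20.7 with si46, and at 19.5, 15.1, 21.7 and 17.4 with si47. All 12 knockdown libraries were above all 4 controls, as for 1.49% of all genes, and the log2 fold change was 0.50 (SE 0.141, adjusted p = 0.0256 by edgeR). The adjusted p was 0.0873, 0.0563, 0.0685 and 0.0723 without siNTC replicate 1, 2, 3 or 4, with log2 fold changes of 0.47, 0.52, 0.50 and 0.49. No single siRNA passed the threshold for it. Its 3′ UTR of 6015 bases held 4 of the 8-base let-7 matches. It also held shorter ones of 7 bases, 2 that pair with bases 2 to 8 and 2 that end in the A. Among genes given below, the 3′ UTRs of CCND1, E2F2, PEG10 and DICER1 held 0 of the 8-base matches and 2 of 7 bases each.

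The lower one was DGCR8, the RNA-binding partner with which DROSHA cuts microRNA precursors in the nucleus. DGCR8 was at 79.1 ± 9.35 CPM in siNTC and at 64.4 ± 3.499, 67.8 ± 6.25 and 61.5 ± 3.21 in si45, si46 and si47. Its log2 fold change was -0.29 (SE 0.0837, adjusted p = 0.0251 by edgeR), and the adjusted p was 0.119 and 0.152 without siNTC replicate 1 or 2, with log2 fold changes of -0.26 and -0.23. DICER1, which cuts the hairpin in the cytoplasm, was at 167 ± 9.33 CPM in siNTC with a log2 fold change of 0.07 (adjusted p = 0.658 by edgeR). The enzymes through which LIN28 removes let-7 precursors were not called. The uridylases TUT4 and TUT7 gave -0.03 and -0.0023 (adjusted p = 0.908 and 0.992) and the nuclease DIS3L2 gave 0.20 (adjusted p = 0.345).

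Of 17 let-7 hairpin genes and host transcripts, 3 had enough counts to be tested (MIRLET7A1HG, MIRLET7BHG and HUWE1, transcripts that host let-7 hairpins). By edgeR, DESeq2 and limma-voom 0 of them were called in the mean contrast (7.14% of all genes by edgeR), and 2 had an unadjusted p under 0.05 (20.4% of all genes). Their log2 fold changes were -0.24, -0.03 and -0.22 (adjusted p = 0.186, 0.921 and 0.0608 by edgeR). MIRLET7IHG, a let-7i host that was not in the list, was also tested, with a log2 fold change of -0.06 (adjusted p = 0.922 by edgeR). HUWE1 was at 264 ± 20.8 CPM in siNTC, and the knockdown groups were at 223 to 234 CPM.

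Among 23 known let-7 targets, 20 were tested, and 2 were higher and 1 lower in the mean contrast (3.61% and 3.53% of all genes), with a median of -0.03. CCND1, the G1 cyclin, rose with a log2 fold change of 0.28 (SE 0.0709, adjusted p = 0.0105), from 799 ± 54.1 CPM to 891 ± 75.1, 1084 ± 125 and 947 ± 43.5 with si45, si46 and si47. Without siNTC replicate 1 its adjusted p was 0.0754 and its log2 fold change 0.24. TRIM71 was the other one that rose. E2F2, a cell cycle transcription factor, fell by 0.60 on the log2 scale (SE 0.119, adjusted p = 0.00102), from a mean of 31.7 CPM (29.7 to 33.3, n = 4) to 22.4 (18.5 to 25.8), 21.9 (19.7 to 26.6) and 18.5 (16.03 to 22.2), and was below all controls in 12 of 12 libraries, as were 1.03% of all genes.

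**Figure D4:**
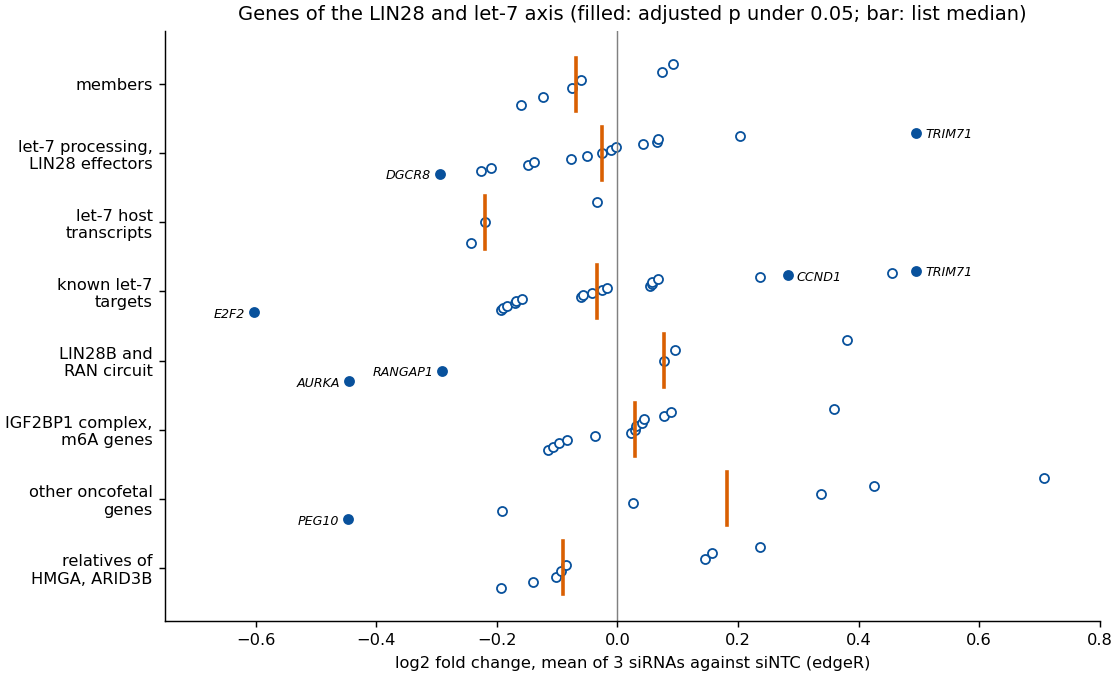
Log2 fold change in the mean of the 3 siRNAs against siNTC (edgeR, horizontal axis) of every tested gene of each list; filled and named points have an adjusted p under 0.05, orange bars are list medians and the grey line is the median of all genes tested. TRIM71 (0.50) and CCND1 (0.28) lie to the right, and E2F2 (-0.60), AURKA (-0.45), PEG10 (-0.45), RANGAP1 (-0.29) and DGCR8 (-0.29) to the left, while none of the 6 tested genes in the top row is filled.

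The seed match was also read across the transcriptome, with the 8 genes left out. The 451 tested genes with the 8-base match had a median log2 fold change of -0.03 in the mean contrast, with 10 called higher and 22 lower (7.1% in all). The 9756 tested genes with no 7-base or 8-base match had a median of -0.0031, with 306 higher and 397 lower (7.21%). The 17 genes with at least 2 matches, which are among the 451, had a median of 0.02, with 1 higher and 2 lower. Genes with the match had longer 3′ UTRs, with a median of 3346 bases against 972.5, and the part of length in the difference of the medians was not tested. With si47 the 451 genes gave 12 higher and 33 lower calls (9.98%), beside 437 and 521 (9.82%) for those without a match.

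**Figure D5:**
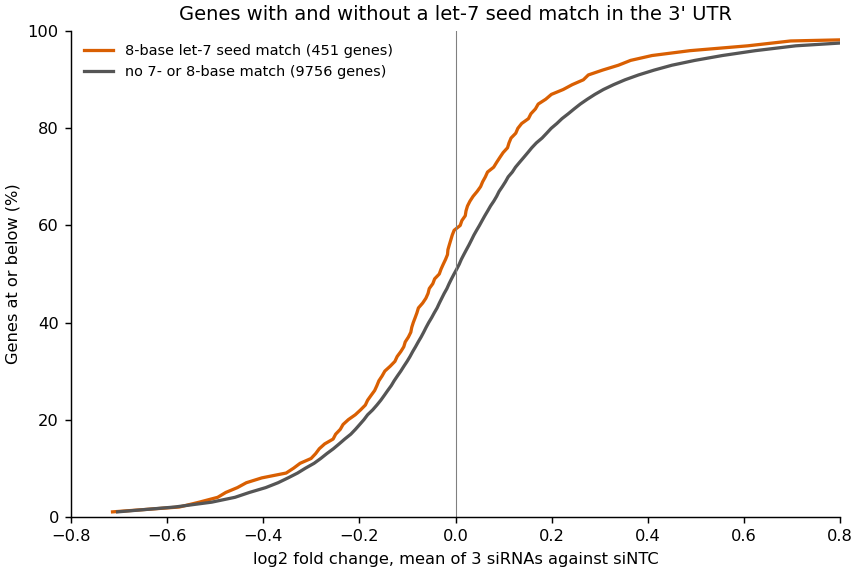
Cumulative share of genes (vertical axis, percent at or below) by log2 fold change in the mean of the 3 siRNAs against siNTC (horizontal axis), for 451 genes with an 8-base let-7 seed match in the 3′ UTR (orange) and 9756 genes with no 7-base or 8-base match (grey). The orange curve lies slightly to the left of the grey one around 0, with medians of -0.03 and -0.0031.

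The chain by which LIN28B is known to reach Aurora kinase A was read as a list of 5 genes, of which 2 were lower and 0 higher in the mean contrast (3.53% and 3.61% of all genes). AURKA, the kinase that TPX2 activates, fell by 0.45 on the log2 scale (SE 0.120, adjusted p = 0.0278 by edgeR), from 170.5 ± 14.3 CPM in siNTC to 125 ± 27.2, 132 ± 16.4 and 119 ± 26.9 with si45, si46 and si47. RANGAP1, which switches RAN off, had a log2 fold change of -0.29 (SE 0.0844, adjusted p = 0.0291). Without siNTC replicate 1, 2 or 4 the adjusted p of AURKA was 0.0750, 0.0812 and 0.119, at log2 fold changes of -0.46, -0.45 and -0.39. For RANGAP1 it was 0.0819, 0.140 and 0.121, at -0.29, -0.25 and -0.26, and 0.0525 at -0.27 without si45 replicate 2.

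RAN itself was at 742 ± 33.3 CPM in siNTC and 765 to 798 CPM with the siRNAs, with a log2 fold change of 0.08 (-0.08 to 0.24, adjusted p = 0.642). MYCN, the amplified oncogene of these cells, was at 919.7, 1108, 891 and 941 CPM in siNTC. It was at 1441, 1233, 858 and 1257 CPM with si45, at 1190.4, 1412, 1065 and 1465 with si46, and at 1590.3, 1164, 1048 and 1362 with si47. Replicate 3 was the lowest in each of the 4 groups. The log2 fold change was 0.38 (SE 0.129, adjusted p = 0.0904 by edgeR), which was not called. It was called by DESeq2 (adjusted p = 0.0137), with the replicate block (0.00896) and with no filter on low counts (0.00819), and when replicate 3 of any knockdown group was left out (0.00657 for si45, 0.0429 for si46 and 0.0474 for si47). MYCN was not called by limma-voom. Its highest adjusted p was 0.232 by edgeR with 1 library left out, and 0.141 among the other alternative fits.

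Other oncofetal genes were a list of 10, of which 6 were tested, with 1 lower and 0 higher (3.53% and 3.61% of all genes). PEG10, an imprinted gene derived from a retrotransposon, fell by 0.45 on the log2 scale (SE 0.0885, adjusted p = 0.00105), from 93.2 ± 9.48 CPM to 78.0 ± 5.03, 61.0 ± 3.78 and 67.1 ± 11.8. IGF2, the growth factor whose message gave the IGF2BP family its name, was listed at 0 in all 16 libraries; other annotated genes overlap it on the same strand, so reads shared with them may not have been counted. The 13 genes of the IGF2BP1 complex and of the m6A mark that IGF2BP proteins read gave 0 calls in the mean contrast by edgeR, DESeq2 and limma-voom, with 1 unadjusted p under 0.05 and a median of 0.03; over all genes edgeR called 7.14%, and 20.4% had an unadjusted p under 0.05. The 8 tested relatives of HMGA and ARID3B (of 10 listed) gave 0 calls by the same tools, with 3 unadjusted p-values under 0.05 and a median of -0.09, beside the same shares of all genes.

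For each tested gene the transcripts with the most similar profile were named by Pearson r of log2 CPM over the 16 libraries, as a description over libraries that share groups, depth and scaling. For IGF2BP1 they were KIF14 (r = 0.93), TK1 (0.93) and NRM (0.92). For LIN28B they were KDM7A (0.87), TMEM44-AS1 (0.85) and TTC27 (0.80), and for ARID3B they were ZNF655 (0.83), SIRT5 (0.78) and LLPH (0.78). HMGA1 was most like PELI2 (0.83), FBXO45 (0.81) and SUN2 (0.78), IGF2BP2 was most like ARHGEF12 (0.77), ACSS2 (0.77) and HSPG2 (0.76), and IGF2BP3 was most like MGME1 (0.88), SLC5A3 (0.88) and KIZ (0.88). No gene was named for more than 1 of the 6.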

How the data were processed

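The 16 libraries were total RNA of IMR32 cells made with the Lexogen 3′ end kit with 15 PCR cycles and single-end NextSeq reads, per the labels. The authors deposited raw counts per Ensembl gene, whole numbers that were not normalized. FastQC 0.11.7, STAR 2.7.2b, edgeR 3.36.0, limma 3.50.3 and GRCh38 are named in the submitters' processing notes without roles, and the counter, its use of strand, the annotation and any use of molecular identifiers are not given in the sources used here. PCR duplicates and reads shared by overlapping genes may therefore affect the counts. The count table held 0 genes of the mitochondrial chromosome, so library totals and CPM are without them.

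Groups follow the siRNA that each label names. Symbols matched 58434 identifiers, and GENCODE v29 held 58515. Genes were kept by filterByExpr (minimum count 10, minimum total 15), which left at least 99.6% of each library's counts, scaled by TMM and fitted with edgeR 4.0.16 (R 4.3.3) as 4 group means in 1 robust quasi-likelihood model. The 7 contrasts were each siRNA and their mean against siNTC and the 3 pairs of siRNAs, adjusted by Benjamini-Hochberg within each, with a threshold of 0.05. A standard error is the log2 fold change divided by the square root of F. CPM uses TMM library sizes. DESeq2 1.42.0 and limma 3.58.1 (voom) were alternatives, besides other size factors, other filters, only the groups compared, a replicate block and leaving out each library. The pipeline was tested on simulated data. The 24 pairs of replicates differed by a chi-square of 4.36 to 9.80 per degree of freedom, so none was a library deposited again.

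Same-numbered si45 and si47 libraries deviated together (correlations over genes of 0.12 to 0.24, over 0.1 in 4 of 4 pairs). No other pair of groups was over 0.1 in all 4, but same-numbered correlations were positive in every pair of groups. They ranged from 0.02 (siNTC and si47) to 0.25 (si45 and si46). The replicates may thus be paired, which the main fit with 4 group means left out. The replicate block was an alternative fit, and it called IGF2BP1 in the mean contrast.

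Named genes were the 8 genes and TPX2, from each list up to 4 called in the mean contrast by lowest p, AURKA, MYCN, RAN, DICER1, TUT4, TUT7, DIS3L2 and IGF2, and per tested gene the 3 with the highest Pearson r of log2 CPM (prior count 2). Other genes named from the lists, such as HUWE1, and RNU6-826P were added after their values were seen. The 3′ UTR was that of the APPRIS principal transcript, the longest where several qualified, a rule set after seeing the data. The members and lists were chosen with earlier results of these data known. Some items of the marker list are not reported here, and its sums are without them.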

Additional observations from a re-analysis of the deposited data

Results flagged for a closer look

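In 3 of 92 groups of 4 libraries, taken over the named genes, 1 library stood apart from the other 3 by more than Dixon's 95% limit, where chance gives about 1 in 20, or 4.6. IGF2BP2 was at 57.9 CPM in siNTC replicate 2, below the 65.8 to 66.8 CPM of the other controls. TPX2 was at 121 CPM in si45 replicate 3, above the 79.4 to 85.1 CPM of the other si45 libraries. TUT4 was at 192 CPM in si46 replicate 2, above the 141 to 149 CPM of the other si46 libraries.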

How the results depend on the processing

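Depth limits what can be said of LIN28A and HMGA2, and with 4 libraries a group the 95% intervals of the other 6 against siNTC reach from -0.42 to 0.46 on the log2 scale. The causes of the following shifts were not tested. Of the 217 log2 values of the 6 genes and TPX2 under alternatives other than leaving out a library, 214 kept direction and side of the threshold, as did 436 of 448 with 1 library left out. The number of the 6 genes called was 1 with DESeq2 and 1 with the replicate block in the mean contrast, 0 with only the groups compared in si47 against siNTC, and 0 to 1 there with 1 library left out. The replicate block gave 577, 1073, 2198 and 1817 calls over all genes for si45, si46, si47 and the mean against siNTC, and 33, 398 and 108 for si46 against si45, si47 against si45 and si47 against si46, where the unblocked fit gave 190, 482, 1382, 1014, 4, 24 and 7. The labels give no meaning to the replicate numbers. Among the genes given with values here the block added the calls of IGF2BP1, MYCN and HUWE1 in the mean contrast. Over all genes the block called 1817 of 14193 in that contrast, where the unblocked fit called 1014. By list the block called 4 of 15 for let-7 processing, 1 of 3 let-7 hosts and 5 of 20 known let-7 targets. It also called 3 of 5 for LIN28B and RAN, 3 of 6 oncofetal genes and 1 of 8 relatives of HMGA and ARID3B. For si45 against siNTC and the same 3 pairs, no filter gave 356, 14, 166 and 44 calls and DESeq2 gave 292, 10, 137 and 28. Fitting only the groups compared gave 4 calls for si47 against si46. With 1 library left out the calls ranged from 97 (without si45 replicate 1) to 406 (without si45 replicate 3) for si45, 252 to 579 for si46, 932 to 1664 for si47 and 629 to 1388 for the mean, and from 4 to 7, 10 to 147 and 2 to 23 for the 3 pairs. Log2 fold changes near 0 changed sign: HMGA1 ranged from -0.14 to 0.0089 with si46, -0.12 to 0.037 with si47 and -0.14 to 0.0095 in the mean contrast, IGF2BP3 with si45 from -0.040 to 0.12, TUT4 from -0.070 to 0.049 and TUT7 from -0.040 to 0.053. TUT7 was also above 0 with upper-quartile factors (0.0018), with no filter (0.0012) and with at least 10 counts in every library (0.0059). For genes outside the 8 these alternatives were chosen after seeing the data.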
